A study of Oryctolagus cuniculus with 36 samples.

Results

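The genes described here encode the drug-metabolizing enzymes of rabbit liver: cytochromes P450 of families 1 to 4, flavin-containing monooxygenases (FMO), aldehyde oxidases (AOX), carboxylesterases (CES), UDP-glucuronosyltransferases (UGT) and sulfotransferases (SULT). They are all rows of the count table whose symbol begins with CYP and a digit from 1 to 4 followed by a letter, UGT1 to UGT3, SULT, FMO1 to FMO6, CES1 to CES6 or AOX. The rule reads symbols alone, but it was set with earlier results of these data known. The rule found 48 of 23394 rows, in 20 families, and 41 of the 48 passed the filter on low counts that left 14939 genes for testing. The study concerns genome editing of newborn rabbits that model hereditary tyrosinemia type I, in which the gene FAH, for the enzyme that ends the tyrosine degradation pathway, is defective. Liver RNA was sequenced in 36 libraries under 3 labels, WT, FA and FK, each with 3 numbered sets of 4 libraries. The counts of a set were summed into 1 replicate. The labels spell out neither FA nor FK and give no allele, treatment, dose, sex or age beyond newborn, and they carry the same disease description for WT, FA and FK alike, so the groups rest on the sample titles. They tie neither the libraries nor the sets to separate animals. Outside the limma-voom fit on the 36 libraries, p-values thus rest on variation among sets alone, and that variation may be technical.

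These enzymes clear drugs, environmental chemicals, hormones and bile pigments, and the hepatocyte is their main site in the body. P450s, FMOs and aldehyde oxidases put oxygen onto their substrates, the P450s with electrons handed on by the reductase POR, and carboxylesterases split esters and amides. UGTs then attach glucuronic acid, which UGDH prepares, and SULTs attach sulfate from a donor made by PAPSS enzymes, so that the product can leave in bile or urine. Many of these genes arose by tandem duplication and remain alike in sequence. Estimated counts of neighbouring copies can trade reads, so each family is given by its sum as well as by gene.

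Single libraries held 11.7 to 22.5 M counts and summed replicates 53.2 to 78.6 M. FAH checks the WT label against FA and FK. It was 237, 271 and 218 CPM (TMM-scaled counts per M counts) in WT replicates 1, 2 and 3. It was 25.7, 24.7 and 19.6 CPM in FA and 16.4, 11.8 and 14.6 CPM in FK. All FA values lay above all FK values, but that difference was not called (0.71, SE 0.21, edgeR adjusted p = 0.119). FAH thus does not settle FA labels against FK labels. FK replicate 3 lay between the other FK values in FAH but stood apart from FK replicates 1 and 2 in most of the results below. Tests of the named FK differences are therefore given with and without it. The fits without it were singled out after these values were seen and leave only FK replicates 1 and 2. Their small errors and p-values follow in part from that choice, so they describe those replicates and not the FK group. Hepatocyte markers, 9 of 10 found, summed to 185279 to 250704 CPM in WT, 195080 to 264729 CPM in FA and 197820, 129921 and 215686 CPM in FK replicates 1, 2 and 3. Most of that sum is albumin (ALB), at 159014 to 218584 CPM in WT and 145986, 85068 and 180795 CPM in FK. Of the other hepatocyte markers, 4 lay below WT in FK replicates 1 and 2. The transport protein TTR was 3741 to 4440 CPM in WT and 838, 1136 and 3293 CPM in FK. The asialoglycoprotein receptor genes ASGR1 (401 to 453 CPM in WT, 216, 212 and 299 CPM in FK) and ASGR2 (424 to 454 CPM, and 118, 169 and 271 CPM) lay below WT in all 3 FK replicates. The transcription factor HNF4A was 333 to 417 CPM in WT and 219, 238 and 350.5 CPM in FK. APOA1, APOB, TF and CPS1 lay above WT in FK replicates 1 and 2. Erythroid markers, 17 of 22 found, summed to 656 to 2474 CPM in WT, 386 to 932 CPM in FA and 7111, 16820 and 636 CPM in FK. Neutrophil markers, 11 of 13 found, summed to 17.5 to 30.7 CPM in WT, 19.5 to 42.7 CPM in FA and 1312, 2506 and 28.4 CPM in FK. B and plasma cell markers, 9 of 10 found, summed to 86.6 to 99.5 CPM in WT and 29.5 to 39.2 CPM in FA. In FK the sum was 4.89, 7.48 and 30.0 CPM, so FA and FK both lay below WT. Most of the WT sum is JCHAIN, at 78.1 to 92.4 CPM in WT and 1.84, 1.55 and 27.6 CPM in FK. CD22 was not below WT in FK replicates 1 and 2 (0.551 to 1.33 CPM in WT, 1.15 and 1.50 CPM in those replicates). Bile duct markers, 10 of 10 found, summed to 17.3 to 21.9 CPM in WT, 9.98 to 15.6 CPM in FA and 29.5, 51.4 and 7.11 CPM in FK. Macrophage markers, 10 of 12 found, were lower in FA (322 to 429 CPM) than in WT (593 to 805 CPM) without overlap, and were 786, 574 and 533 CPM in FK. Endothelial markers, 11 of 13 found, were likewise lower in FA (185 to 269 CPM) than in WT (321 to 380 CPM), with 404, 266 and 267 CPM in FK. The same held for stellate cell and fibroblast markers, 12 of 12 found, at 163 to 249 CPM in FA against 287 to 353 CPM in WT, with 245, 306 and 218 CPM in FK. T and NK cell markers, 12 of 12 found, summed to at most 12.7 CPM in any replicate. Genes of that list went both ways in FK replicates 1 and 2. CD3E was 1.30 to 1.74 CPM in WT and 0.128 and 0.485 CPM there. NKG7 was 0.0483 to 0.243 CPM in WT and 3.20 and 5.67 CPM there. Of all markers found only CLEC4F, a macrophage marker, had no count in a whole group, FA. High erythroid, neutrophil and bile duct sums thus accompany FK replicates 1 and 2 in everything that follows. So do low B cell sums and low hepatocyte markers such as TTR. Low sums of 5 non-hepatocyte lists (B cells, bile duct, macrophages, endothelium, stellate cells and fibroblasts) likewise accompany both FA and FK replicate 3. Their part in the results was not tested. In bulk liver, fewer cells of a type and less RNA per cell cannot be told apart.

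In FK replicates 1 and 2, drug-metabolizing genes made up a far smaller share of liver RNA than in the other 7 replicates. The 48 genes took 2.80%, 3.09% and 3.77% of all counts in WT replicates 1, 2 and 3. They took 3.19%, 2.54% and 4.28% in FA. In FK the share was 0.364%, 0.396% and 3.57%, so 2 FK replicates lay far below the WT range and the other within it. The P450 members alone took 1.97% to 2.99% in WT, 1.73% to 3.01% in FA, and 0.159%, 0.168% and 2.59% in FK. The median over the 41 tested genes was 11.6% and 13.0% of the WT mean in FK replicates 1 and 2, against 109.9% in FK replicate 3. In each of FK replicates 1 and 2, 35 of 41 genes lay below all 3 WT values. In FK replicate 3, 14 lay below and 17 above. Shares over all genes tested were not computed for these ranges, so no background stands beside these counts.

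**Figure D1:**
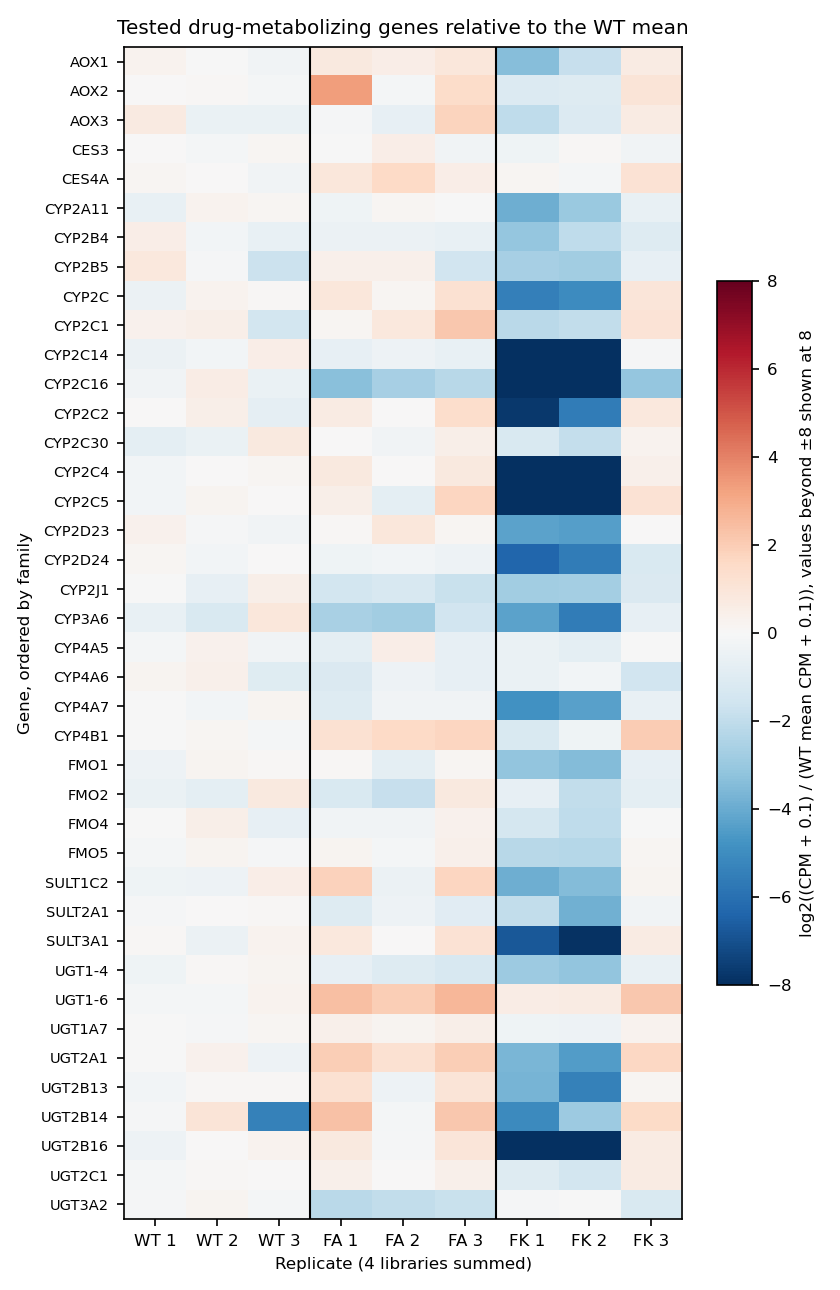
Colour shows log2 of each replicate's CPM over the WT mean, with 0.1 CPM added to both, for 40 of the 41 tested genes in rows and the 9 replicates in columns; blue is below WT, red above, and values beyond 8 in either direction are drawn at 8. FK replicates 1 and 2 are blue in most rows, with CYP2C14, CYP2C16, CYP2C4, CYP2C5 and UGT2B16 at the end of the scale, while FK replicate 3 resembles the FA columns.

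With all 9 replicates in the fit, 1 of the 41 genes, CYP2J1, was called lower in FK than in WT and 0 were called higher (edgeR quasi-likelihood test, Benjamini-Hochberg adjusted p under 0.05). Over all genes tested, 1.73% were called lower and 3.04% higher, so that share of members is near the background. At an unadjusted p under 0.05, 8 members were lower and 1 higher, where 10.2% of all genes tested were lower and 16.7% higher. FK replicate 3 was then left out, a choice made with the values of these genes known. Of 42 members tested, 29 were called lower and 1, AOX4, higher, against a background of 16.2% lower and 18.7% higher. The median fitted log2 difference of the members was -0.93 with all replicates and -2.76 without FK replicate 3, beside 0.05 and 0.01 over all genes tested. All 3 FK values lay below all 3 WT values for 10 of 41 genes, where the background is 13.4%, and above them for UGT1-6 alone, where it is 13.9%. DESeq2, which gave 34 members an adjusted p, called 2 higher and 4 lower (background 11% and 5.96%). The fit of FK and WT alone called 0 and 0 of 40 (0.11% and 0.186%). The limma-voom fit on the 36 libraries called 1 higher and 25 lower of 40 (7.8% and 11.4%). That fit enters single libraries with 1 correlation for all genes, so the libraries of a set count partly as replicates. Over 8-fold below the WT mean were 21 members in FK replicate 1 (background 5%) and 19 in FK replicate 2 (4.83%), but only CYP2C16 in FK replicate 3 (1.43%).

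CYP2J1, a member of the arachidonic acid epoxygenase subfamily, was measured at 70.2, 45.6 and 99.0 CPM in WT replicates 1, 2 and 3. In FK it was 10.2, 11.0 and 31.9 CPM. All 3 FK values lay below the lowest WT value. The fitted log2 difference was -2.02 (SE 0.48, edgeR adjusted p = 0.0492), and -2.77 (SE 0.34, adjusted p = 0.000389) without FK replicate 3. The call is close to its threshold: the gene was called in 5 of 16 alternative fits, with the same sign in all 16 and adjusted p from 3.0e-07 to 0.161. Leaving out any 1 of the WT or FA replicates or of the other FK replicates raised the adjusted p above 0.05. CYP2J1 is also the 1 member without a match in RefSeq (assembly mOryCun1.1, used here for names and gene order only) by symbol or synonym.

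CYP2B4, the rabbit form of the phenobarbital-inducible P450, was 327, 189 and 149 CPM in WT. It was 25.6, 54.0 and 109.9 CPM in FK, below every WT value in each replicate. The difference of -1.81 (SE 0.50) missed the threshold (edgeR adjusted p = 0.0669) and passed without FK replicate 3 (-2.49, SE 0.43, adjusted p = 0.0024). CYP2B5, which the RefSeq table lists as a synonym of CYP2B4, was 64.5, 33.1 and 10.7 CPM in WT and 5.56, 5.26 and 22.5 CPM in FK. Its WT values span a wide range that its FK replicate 3 falls into. Its difference was -1.70 (SE 0.82, adjusted p = 0.218), and it was called without FK replicate 3 (-2.76, SE 0.80, adjusted p = 0.026). CYP2A11, of the coumarin-hydroxylating subfamily and near CYP2B4 in RefSeq gene order, was 1822, 3254 and 3019.9 CPM in WT against 181, 350.2 and 1794 CPM in FK. Its difference was -1.80 (SE 0.77, adjusted p = 0.177), or -3.36 (SE 0.44, adjusted p = 0.000572) without FK replicate 3.

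The CYP2C family, rich in steroid and drug hydroxylases, had the highest mean counts of the families in WT and in FA, although in WT replicate 3 the CYP3A row was higher (14625 against 13588 CPM). Its 8 genes summed to 10492, 15206 and 13588 CPM in WT and to 606, 472 and 18886 CPM in FK. Thus FK replicates 1 and 2 held 4.63% and 3.60% of the WT mean, and FK replicate 3 held 144%. The summed family differed from WT by -0.98 (SE 1.23, edgeR adjusted p = 0.649) with all replicates and by -4.63 (SE 0.48, adjusted p = 0.000198) without FK replicate 3. The gene labelled CYP2C was 2478, 4238 and 3768 CPM in WT and 79.9, 108 and 6771 CPM in FK. CYP2C4 was 2595, 3195 and 3441 CPM in WT, and 8.29, 8.14 and 4012 CPM in FK. CYP2C2 was 2056, 2819 and 1269 CPM in WT, and 9.65, 41.6 and 3644 CPM in FK. In each of these 3 genes FK replicate 3 lay above the highest WT value and the other FK replicates far below the lowest. With all replicates the differences from WT were -0.59 (SE 1.37), -1.20 (SE 1.75) and -0.73 (SE 1.57), none called (edgeR adjusted p = 0.815, 0.7 and 0.799). When FK replicate 3 was left out, they were -5.23 (SE 0.50), -8.57 (SE 0.46) and -6.34 (SE 0.86), with edgeR adjusted p of at most 0.000665.

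The other 5 CYP2C genes are outside the naming rule and were singled out after their values were seen. CYP2C5, the progesterone 21-hydroxylase whose crystal structure served as the model of mammalian P450s, was 786, 1053 and 927 CPM in WT and 0.447, 0.212 and 2083 CPM in FK. CYP2C14 was 580.2, 696 and 1139 CPM in WT and 0.655, 0.243 and 764 CPM in FK. CYP2C16 was 1279, 2365 and 1078 CPM in WT and 0.991, 1.03 and 182 CPM in FK. These 3 genes lay at 0.0230% to 0.0814% of the WT mean in FK replicates 1 and 2. In FK replicate 3 CYP2C5 was above and CYP2C14 within the WT range, and only CYP2C16 remained below it. CYP2C30 kept more of its WT level, with 676, 795 and 1953 CPM in WT and 499, 304 and 1359.7 CPM in FK. CYP2C1 was 42.2, 46.0 and 12 CPM in WT and 7.41, 8.49 and 70.3 CPM in FK. With all replicates none of these 5 was called, CYP2C16 coming closest (-4.68, SE 1.79, edgeR adjusted p = 0.138). All 8 genes of the family were called lower without FK replicate 3, with log2 differences from -1.53 for CYP2C30 to -11.47 for CYP2C5 (edgeR adjusted p from 1.42e-05 to 0.0422).

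The family's makeup also differed. CYP2C30 gave 6.44%, 5.23% and 14.4% of CYP2C counts in WT and 6.50%, 8.29% and 6.45% in FA. It gave 82.3%, 64.4% and 7.20% in FK, and so made up most of the family's counts in FK replicates 1 and 2. CYP2C4 gave 21.0% to 25.3% in WT and 1.37% and 1.73% in those 2 replicates. In RefSeq order the 8 genes lie in 1 run, CYP2C30, CYP2C, CYP2C4, CYP2C16, CYP2C5, CYP2C2, CYP2C1, CYP2C14, with gaps of at most 5 other genes, and the gene that kept the most stands at one end. Shares are of counts and are not adjusted for gene length.

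**Figure D2:**
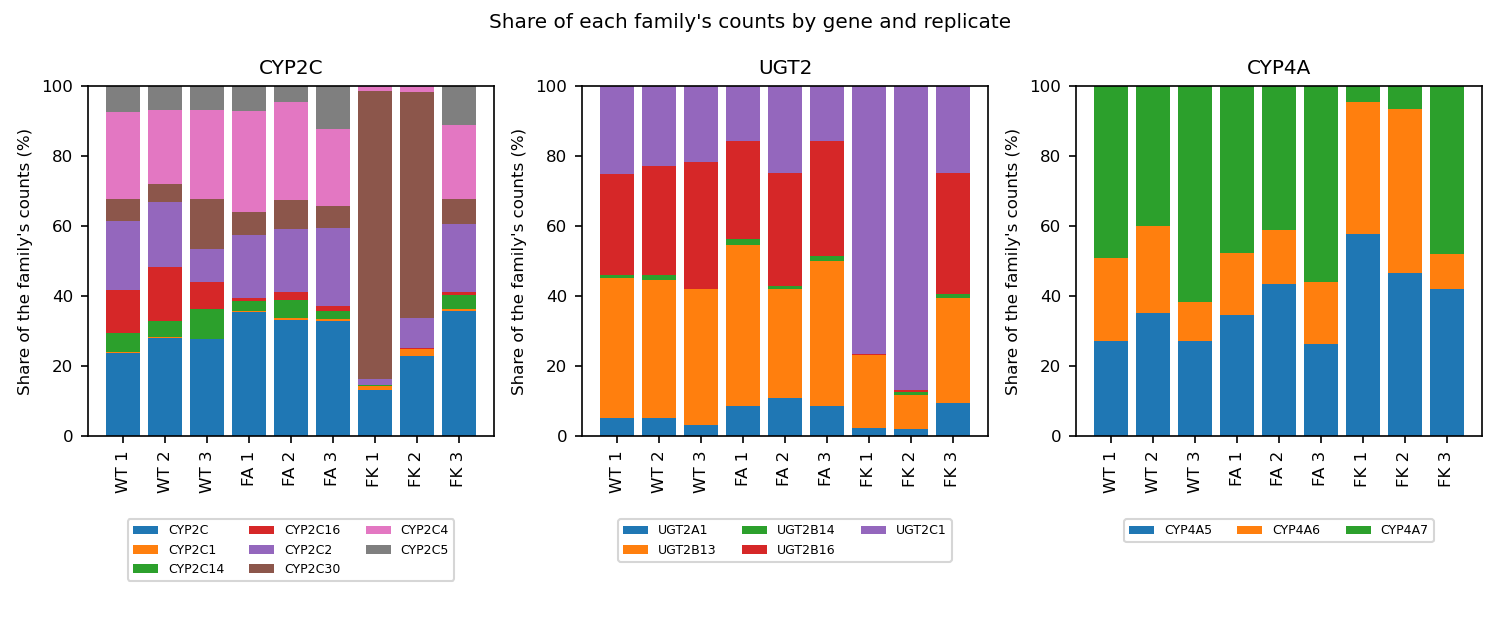
Stacked bars give the percent of each family's summed counts contributed by each gene, for the CYP2C, UGT2 and CYP4A families, in the 9 replicates. FK replicates 1 and 2 stand out with CYP2C30 at 82.3% and 64.4% of CYP2C, UGT2C1 at 76.5% and 86.8% of UGT2, and CYP4A7 at 4.69% and 6.70% of CYP4A, while the FK replicate 3 bars look like those of FA.

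The 2 CYP2D genes belong to the subfamily that oxidizes many basic drugs. CYP2D23 was 494, 373 and 320.0 CPM in WT and 20.2, 18.4 and 401 CPM in FK. CYP2D24 was 206, 161 and 185 CPM in WT and 2.17, 3.75 and 79.3 CPM in FK. All 3 FK values of CYP2D24 lay below WT, whereas CYP2D23 in FK replicate 3 was within the WT range. The differences were -1.43 (SE 1.04) for CYP2D23 and -2.69 (SE 1.14) for CYP2D24, neither called (edgeR adjusted p = 0.406 and 0.171). They were -4.38 (SE 0.38) and -5.97 (SE 0.34), both called, without FK replicate 3. CYP3A6, the sole CYP3A row and of the subfamily that handles the widest range of drugs, was 5122, 3249 and 14625 CPM in WT and 389, 156 and 4934 CPM in FK. WT replicate 3 lay well above the other WT values, and FK replicate 3 fell inside the WT range. The difference was -2.07 (SE 1.19, adjusted p = 0.298), or -4.83 (SE 0.85, adjusted p = 0.00265) without FK replicate 3.

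The CYP4A genes, fatty acid omega-hydroxylases, did not share 1 pattern. CYP4A7 was 263, 229 and 305 CPM in WT and 9.17, 13.2 and 178 CPM in FK, with no overlap. CYP4A5 was 145, 201 and 134 CPM in WT and 113, 91.8 and 156 CPM in FK. CYP4A6 was 127, 142 and 55.0 CPM in WT and 73.6, 92.2 and 37.8 CPM in FK. The last 2 overlapped with WT. CYP4A7 differed by -1.99 (SE 0.97, edgeR adjusted p = 0.225), CYP4A5 by -0.41 (SE 0.39) and CYP4A6 by -0.67 (SE 0.43), none called. Leaving out FK replicate 3, it differed by -4.58 (SE 0.36) and was called, while CYP4A5 (-0.67, SE 0.41) and CYP4A6 (-0.40, SE 0.40) were not (edgeR adjusted p = 0.233 and 0.468). CYP4A7 gave 49.2%, 40.0% and 61.7% of CYP4A counts in WT and 4.69%, 6.70% and 47.9% in FK. The 3 genes are next to each other in RefSeq order, followed by CYP4B1, which is known from lung as an activator of pro-toxins. CYP4B1 was 105, 121 and 96.3 CPM in WT and 46.6, 84.1 and 432 CPM in FK, below the WT range in FK replicates 1 and 2 and above it in FK replicate 3. Its difference turned sign with that replicate, from 0.80 (SE 0.69, adjusted p = 0.488) with it to -0.73 (SE 0.30, adjusted p = 0.0885) without it, and was called in neither fit.

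The FMO genes oxidize nitrogen and sulfur atoms in drugs and in dietary amines. Their sum was 2140.5, 2759 and 2216 CPM in WT and 303, 245 and 1732 CPM in FK, lower than every WT value in each FK replicate. FMO1 was 760.4, 1199.8 and 1113 CPM in WT and 113, 92.6 and 659 CPM in FK. FMO5 was 379.6, 480.5 and 389.5 CPM in WT and 91.1, 84.9 and 467 CPM in FK. FMO1 did not overlap with WT, and FMO5 did through FK replicate 3. Their differences of -1.83 (SE 0.73) and -0.96 (SE 0.61) were not called (edgeR adjusted p of 0.151 and 0.345). In the fit without FK replicate 3, FMO1 (-3.33, SE 0.39), FMO4 (-1.72, SE 0.38) and FMO5 (-2.26, SE 0.26) were all called lower. FMO2, known chiefly from lung, was not called in either fit.

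AOX1, the main liver aldehyde oxidase, was 1211, 959 and 809 CPM in WT and 92.8, 275 and 1545 CPM in FK. FK replicates 1 and 2 were below WT and FK replicate 3 above it. The difference was -0.64 (SE 0.82, edgeR adjusted p = 0.656), or -2.45 (SE 0.47, adjusted p = 0.00406) without FK replicate 3. AOX4 went the other way. It had 9 counts in all over the WT group and 1 over FA, but FK replicates 1 and 2 had 6.49 and 9.27 CPM and FK replicate 3 had 0.0338 CPM. AOX4 did not pass the filter with all replicates. Without FK replicate 3 it was tested and called higher (7.28, SE 0.65, edgeR adjusted p = 0.0001), and DESeq2, which tests it with all replicates, also called it higher. The 4 aldehyde oxidase genes lie side by side in RefSeq order as AOX2, AOX4, AOX3 and AOX1. AOX2 was 6.74, 6.94 and 5.91 CPM in WT and 2.96, 3.20 and 13.7 CPM in FK, a difference of 0.02 (SE 0.84, adjusted p = 0.993), or -1.10 (SE 0.79, adjusted p = 0.307) without FK replicate 3.

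CES3, a carboxylesterase, was 155, 137 and 173 CPM in WT, 155, 227 and 129 CPM in FA and 120.1, 168 and 128 CPM in FK. The groups overlapped throughout, and FK replicates 1, 2 and 3 lay at 77.4%, 108% and 82.7% of the WT mean. The difference from WT was -0.16 (SE 0.26, edgeR adjusted p = 0.731), and -0.13 (SE 0.28, adjusted p = 0.763) without FK replicate 3. UGT1A7 was likewise at 78.8%, 74.0% and 123% of the WT mean, and CYP4A5 at 70.4%, 57.3% and 97.3%.

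The UGT1 genes, which conjugate bilirubin and phenols, differed little in FK as a sum. It was 1106, 1074 and 1291 CPM in WT and 968, 927 and 1849 CPM in FK, a difference of 0.11 (SE 0.36, edgeR adjusted p = 0.875), or -0.31 (SE 0.24, adjusted p = 0.352) without FK replicate 3. The UGT1 genes of mammals share their last exons and differ in the first, so counts of the 3 rows can trade reads. UGT1A7 was 909, 856 and 1019 CPM in WT and 732, 686 and 1144 CPM in FK. UGT1-4 was 63.9, 86.1 and 96.2 CPM in WT and 10.9, 9.10 and 54.0 CPM in FK, below WT in all 3. UGT1-6, of the phenol-conjugating branch, was 134, 132 and 175 CPM in WT and 225, 232 and 651 CPM in FK, above WT in all 3. UGT1-6 was the only tested member whose FK values all exceeded WT. Its difference was 1.33 (SE 0.45), not called by edgeR (adjusted p = 0.102) but called by DESeq2 (adjusted p = 0.0279), and it was 0.62 (SE 0.26, adjusted p = 0.0972) without FK replicate 3. UGT1-4 differed by -1.73 (SE 0.62, adjusted p = 0.12), or -3.06 (SE 0.28, adjusted p = 0.000107) without that replicate. The rows UGT1A7, UGT1-4 and UGT1-6 are adjacent in RefSeq order.

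The UGT2 genes conjugate steroids, bile acids and drugs. They summed to 1452, 1874 and 1885 CPM in WT and to 255, 167 and 2519.8 CPM in FK. UGT2B16 was 419, 583 and 684 CPM in WT and 0.575, 0.880 and 872 CPM in FK. UGT2B13, in the same stretch of RefSeq order, was 583, 741 and 733 CPM in WT and 53.0, 16.4 and 753 CPM in FK. UGT2C1 was 366, 431 and 410.3 CPM in WT and 195, 145 and 624 CPM in FK. In FK replicate 3 all 3 lay above the WT range, and in the other FK replicates all 3 lay below it, UGT2B16 at 0.102% and 0.157% of the WT mean. With all replicates the differences were -0.95 (SE 1.89), -1.32 (SE 1.13) and -0.32 (SE 0.50), none called (edgeR adjusted p = 0.784, 0.486 and 0.717). In the fit without FK replicate 3 they were -9.60 (SE 0.58), -4.33 (SE 0.67) and -1.26 (SE 0.25), all called (edgeR adjusted p of at most 0.00468). UGT2C1 gave 21.8% to 25.2% of UGT2 counts in WT and 76.5% and 86.8% in FK replicates 1 and 2, so the family was again carried by the gene that kept the most. UGT2B14 could not be judged, since it was 11.2, 24.1 and 0.178 CPM within WT.

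Among the sulfotransferases, SULT3A1, of a subfamily known for sulfating amines, was 1333, 889.6 and 1508 CPM in WT and 11.4, 5.04 and 1944 CPM in FK. SULT2A1, which sulfates bile acids and steroids, was 588, 634 and 659 CPM in WT and 160.0, 43.5 and 518 CPM in FK. SULT1C2 was 4.09, 3.87 and 7.58 CPM in WT and 0.256, 0.379 and 6.01 CPM in FK. SULT2A1 did not overlap with WT, and the other 2 did through FK replicate 3. The differences were -0.93 (SE 1.62), -1.38 (SE 0.71) and -1.23 (SE 1.09), none called by edgeR. They were -7.26 (SE 0.62), -2.65 (SE 0.51) and -4.03 (SE 0.75) without FK replicate 3, all called (adjusted p of at most 0.00419).

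Of the 7 members that did not pass the filter, AOX4 is described above. CES5A and SULT4A1 had at most 11 counts in any group. CYP2G1, SULT2B1 and SULT6B1 had at most 2 counts in any group, and SULT1E1, the estrogen sulfotransferase, had 0 in all 9 replicates. For a group total of 0, a limit of 3 counts corresponds to 0.0156 CPM in WT, 0.0147 CPM in FA and 0.0173 CPM in FK. Such limits and the spread below cover counting and library error only. Among the 4 libraries of a set, member values of at least 10 CPM had a median coefficient of variation of 7.38%, with a range from 1.04% to 50.0%.

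**Figure D3:**
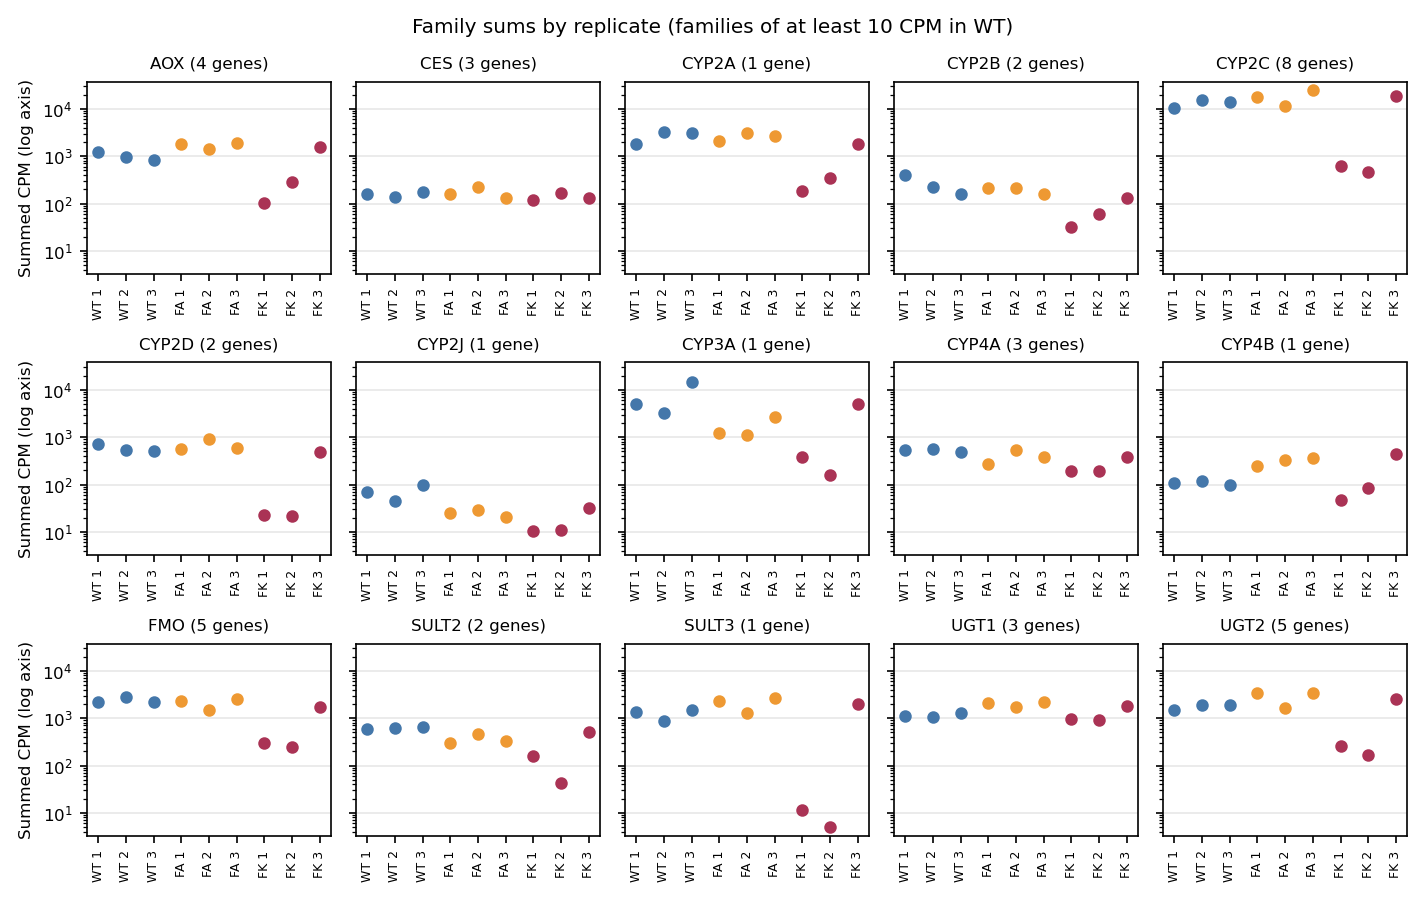
Points give the summed CPM of each family on a log axis, 1 point per replicate, for the 15 families of at least 10 CPM in WT. FK replicates 1 and 2 lie far below the other points in CYP2C, CYP2D, SULT3 and UGT2, and near them in CES and UGT1. The CES sum is nearly all CES3 and leaves out CES1.

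By family sums, 17 of the 20 families could be tested. With all replicates CYP2J, which is CYP2J1 alone, was called lower in FK, and 0 families were called higher. In the fits by gene, 1.73% of all genes tested were lower and 3.04% higher, or 16.2% and 18.7% without FK replicate 3. Of the 17, 13 were called lower without FK replicate 3: AOX, CYP2A, CYP2B, CYP2C, CYP2D, CYP2J, CYP3A, CYP4A, FMO, SULT1, SULT2, SULT3 and UGT2. CES, CYP4B, UGT1 and UGT3 were not called. The CES sum is nearly all CES3, because the rule misses the row of CES1. That row averaged 4061 CPM in WT and was 61.5, 162 and 5373 CPM in FK. The CES sum thus does not stand for all carboxylesterases. A family sum does not depend on how reads were divided among its copies.

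The comparison of FA with WT shares its WT samples with the one above. With all 9 replicates, 0 of the 41 members were called in either direction by edgeR, where 0.0937% of all genes tested were called higher and 0.0736% lower. At an unadjusted p under 0.05, 3 members were higher and 2 lower, about the share over all genes tested (5.11% and 5.05%). DESeq2 called 1 higher, UGT1-6, and 1 lower, UGT3A2, of 34 (background 1.21% and 0.971%), and limma-voom on the libraries called 1 higher, UGT1-6, and 2 lower, CYP2C16 and CYP2J1, of 40 (1.74% and 1.71%). The fitted differences hardly moved, but their errors shrank, when FK replicate 3 no longer entered the shared estimate of spread. Without it, CYP4B1, UGT1-6 and UGT2A1 were called higher and CYP2C16, CYP2J1 and UGT3A2 lower, against a background of 0.912% and 0.686%. A fit of FA and WT alone called the same 3 higher and CYP2C16 and UGT3A2 lower, of 40 members tested (background 0.967% and 0.668%). UGT2A1 and UGT3A2 are outside the naming rule and are named because of these counts. All FA values lay above WT for 6 of 41 members (background 12.5%) and below for 7 (12.4%).

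UGT1-6 was 786, 563 and 929.9 CPM in FA against 134, 132 and 175 CPM in WT, with a wide gap between the groups. The log2 difference was 2.37 (SE 0.46) with all replicates (edgeR adjusted p = 0.125), and 2.37 (SE 0.25, adjusted p = 0.00302) without FK replicate 3. DESeq2 gave an adjusted p of 4.55e-05. It was called in 4 of 16 alternative fits, positive in all 16. Its share of UGT1 counts was 12.1%, 12.3% and 13.6% in WT, 38.2%, 33.4% and 41.5% in FA and 23.3%, 25.0% and 35.2% in FK, higher in each FA and FK replicate than in any WT replicate.

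CYP4B1 was 245, 327 and 361 CPM in FA against 96.3 to 121 CPM in WT, a difference of 1.53 (SE 0.70, edgeR adjusted p = 0.497), with adjusted p = 0.0319 without FK replicate 3. UGT2A1, which the RefSeq table lists as a synonym of UGT2C1, was 298, 175 and 289.6 CPM in FA against 72.8, 95.9 and 56.9 CPM in WT. Its difference was 1.76 (SE 1.29, adjusted p = 0.702), with adjusted p = 0.0364 without FK replicate 3. In FK replicate 3 these 2 genes stood at 432 and 237 CPM, close to FA. In FK replicates 1 and 2 CYP4B1 was 46.6 and 84.1 CPM and UGT2A1 was 5.90 and 3.23 CPM. UGT2A1 thus differed between FK and WT by 0.12 (SE 1.25, adjusted p = 0.962) with all replicates, and was called lower without FK replicate 3 (-4.07, SE 0.42, adjusted p = 0.000199).

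Lower in FA than in WT without overlap were CYP2C16, CYP2J1 and UGT3A2, among others. CYP2C16 was 158, 252 and 340.2 CPM in FA, against 1078 to 2365 CPM in WT. Its difference of -2.65 (SE 1.63, edgeR adjusted p = 0.634) was called without FK replicate 3 (adjusted p = 0.0149). FK replicate 3, at 182 CPM, lay among the FA values, and CYP2C16 gave 0.868% to 2.19% of CYP2C counts in FA and 0.962% in FK replicate 3 against 7.94% to 15.6% in WT. CYP2J1 was 25.4, 29.2 and 20.4 CPM in FA, a difference of -1.52 (SE 0.47, adjusted p = 0.339), or adjusted p = 0.0354 without FK replicate 3. UGT3A2 was barely detected, at 0.974, 1.22 and 0.956 CPM in WT, 0.154, 0.194 and 0.234 CPM in FA and 0.959, 1.02 and 0.405 CPM in FK. Its difference between FA and WT was -2.43 (SE 0.45, adjusted p = 0.111), or adjusted p = 0.0149 without FK replicate 3. CYP3A6, at 1248, 1106 and 2652 CPM, lay below every WT value but was not called in either fit (-2.20, SE 1.20, adjusted p = 0.581; adjusted p = 0.124 without FK replicate 3).

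**Figure D4:**
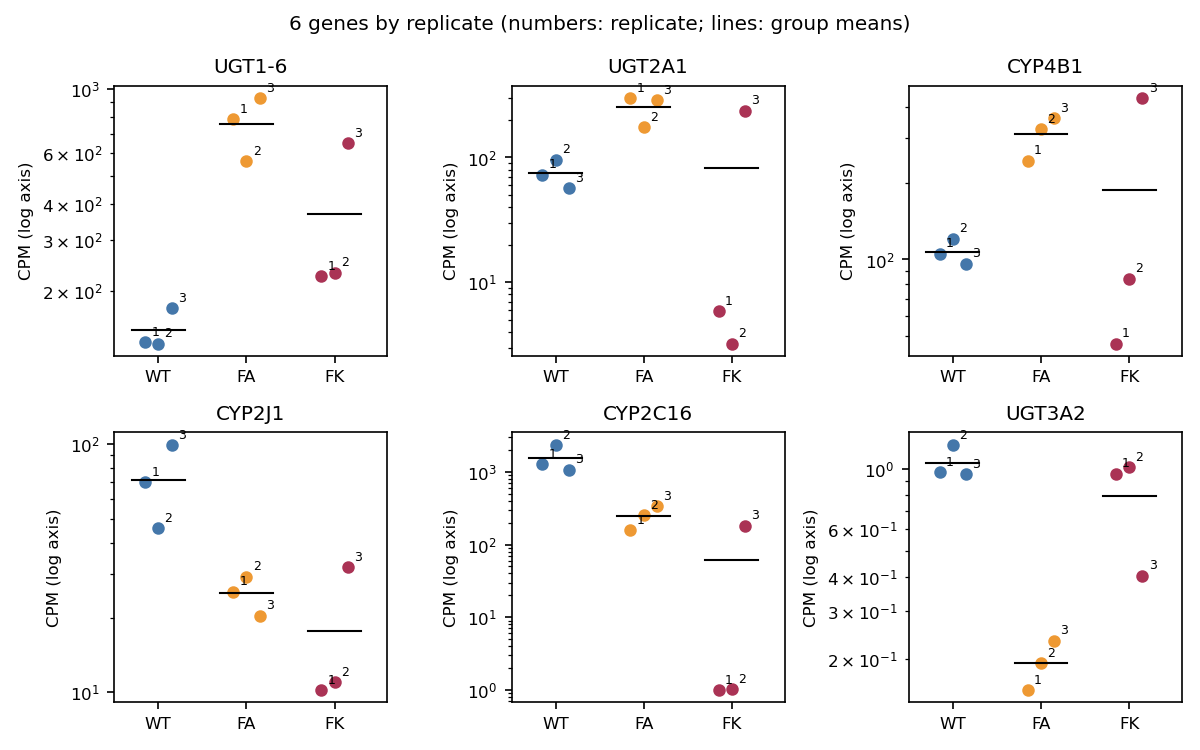
Points give CPM on log axes that differ between panels, numbered by replicate, for 6 genes in WT, FA and FK; lines mark group means. FA lies above WT for UGT1-6, UGT2A1 and CYP4B1 and below it for CYP2J1, CYP2C16 and UGT3A2, and FK replicate 3 sits nearer to FA than to FK replicates 1 and 2 in all 6 panels.

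The median over the 41 tested genes was 106%, 89.5% and 133% of the WT mean in FA replicates 1, 2 and 3. AOX2 was uneven, at 67.3, 5.85 and 18.3 CPM in FA against 5.91 to 6.94 CPM in WT. FA replicate 2 was lower than FA replicates 1 and 3 in several conjugation genes: UGT2B13 was 1582, 507 and 1409 CPM, SULT3A1 was 2262, 1264 and 2717 CPM, and SULT1C2 was 18.6, 3.64 and 17.5 CPM.

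Between FA and FK, 0 of the 41 members were called with all replicates, as were 0% of all genes tested in either direction by edgeR. At an unadjusted p under 0.05, 6 members were higher in FA and 1 lower, where 7.06% of all genes tested were higher and 14.9% lower. DESeq2 called 0 higher and 2 lower, AOX4 and UGT3A2 (background 2.32% and 8.75%). Voom, which enters single libraries, called 32 of 40 higher and 0 lower (10.7% and 6.28%). When FK replicate 3 was left out, 34 of 42 members were called higher in FA and 2 lower, again AOX4 and UGT3A2, against a background of 16.4% and 18.1%. All FA values lay above all FK values for CYP2A11, CYP2B4, CYP2D23 and CYP2D24 (background 8.24%) and below them for UGT3A2 (8.99%). CYP2D24, at 144, 161 and 138 CPM in FA, exceeded its FK replicate 3 value of 79.3 CPM, and CYP2B4, at 163, 161 and 148 CPM, exceeded its own of 109.9 CPM.

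Genes that serve or regulate these enzymes were described from lists. Of 17 genes tested for electron and cofactor supply, 0 were called between FK and WT with all replicates. Over all genes tested, 3.04% were then higher and 1.73% lower. Without FK replicate 3, 2 were called higher and 7 lower, where 18.7% of all genes tested were higher and 16.2% lower. CYB5R1, a cytochrome b5 reductase, had the smallest p (-1.27, SE 0.32, edgeR adjusted p = 0.0544), and was called without FK replicate 3 (-1.73, SE 0.25, adjusted p = 0.000872). Chosen after their values were seen, UGDH was 557 to 605 CPM in WT and 80.7, 51.3 and 589.7 CPM in FK, and PAPSS2 was 77.1 to 105 CPM in WT and 15.4, 9.92 and 208 CPM in FK. Without FK replicate 3 they differed from WT by -3.16 (SE 0.31) and -2.92 (SE 0.40), both called, and with it by -1.27 (SE 0.79) and -0.28 (SE 0.97), neither called. PAPSS1, the other sulfate-donor gene of the list, went the other way in FK replicates 1 and 2, at 7.28 to 8.26 CPM in WT and 13.7, 9.75 and 6.15 CPM in FK (0.35, SE 0.29, or 0.57, SE 0.22, without FK replicate 3, not called in either). POR, the electron donor of the P450s, was 360.1 to 579.6 CPM in WT and 309, 365 and 308 CPM in FK, below the WT range in FK replicates 1 and 3 and not called in either fit (-0.53, SE 0.30, or -0.50, SE 0.31).

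Of 21 tested regulators of drug metabolism genes, 1 rose in FK and 0 fell, where 3.04% of all genes tested rose and 1.73% fell. PPARGC1A, a coactivator of fasting metabolism, was 9.90, 9.89 and 14.9 CPM in WT and 37.3, 29.1 and 23.5 CPM in FK (1.37, SE 0.23, edgeR adjusted p = 0.0314, and 1.50 without FK replicate 3). Without FK replicate 3, 2 were called higher and 9 lower, beside 18.7% and 16.2% of all genes tested. Among them NR1I3, the nuclear receptor CAR that induces CYP2B genes, was 131, 133 and 112 CPM in WT and 15.6, 29.9 and 75.8 CPM in FK. CEBPA, a hepatocyte transcription factor, was 264, 241 and 112 CPM in WT and 16.9, 26.4 and 81.8 CPM in FK. Neither passed with all replicates (-1.63, SE 0.50, and -2.30, SE 0.59, with adjusted p = 0.0834 and 0.0555), both were called without FK replicate 3 (-2.48 and -3.27), and both were picked after their values were seen.

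Other enzymes and transporters had calls in FK chiefly without FK replicate 3. Among 18 genes of other oxidation and hydrolysis, 0 were called with all replicates and 13 were lower without it. Among 13 genes of glutathione and small group transfer, 0 were called with all replicates, and of 14 tested without it 1 was higher and 8 lower. Among 15 drug and bile transporters, 0 were called with all replicates, and 3 were higher and 9 lower without it. The background without that replicate was again 18.7% higher and 16.2% lower. With all replicates it was 3.04% higher and 1.73% lower, so the counts of 0 are near it. The smallest p with all replicates belonged to NQO1 (0.75, SE 0.26, edgeR adjusted p = 0.111), GSTM3 (1.84, SE 0.52, adjusted p = 0.0687) and the efflux pump ABCB1 (1.26, SE 0.31, adjusted p = 0.0536). Without FK replicate 3 GSTM3 (2.26, SE 0.27, adjusted p = 0.000339) and ABCB1 (1.15, SE 0.34, adjusted p = 0.0274) were called, and NQO1 was not (0.53, SE 0.26, adjusted p = 0.142). In FA against WT no gene of these lists was called with all replicates, where 0.0937% of all genes tested were higher and 0.0736% lower. NQO1 came closest (1.79, SE 0.27, edgeR adjusted p = 0.0514).

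The rule leaves out P450 genes that make steroids and bile acids or break down sterols and retinoids. Of 12 such genes tested, 2 rose in FK and 3 fell, where 3.04% of all genes tested rose and 1.73% fell. The aromatase CYP19A1 (6.81, SE 1.23) and the steroid 17-hydroxylase CYP17A1 (3.97, SE 0.83) rose, while the bile acid synthesis genes CYP7A1 (-5.34, SE 1.11) and CYP27A1 (-2.20, SE 0.50) and the sterol demethylase CYP51A1 (-1.96, SE 0.45) fell (edgeR adjusted p from 0.034 to 0.0473). Without FK replicate 3, 2 were called higher and 7 lower (18.7% and 16.2% over all genes tested). The differences were then 7.22 for CYP19A1, 4.47 for CYP17A1, -7.71 for CYP7A1 and -3.10 for CYP27A1, all called, and CYP51A1 was called lower at nearly the same difference (adjusted p = 0.0153).

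The genes of secreted hepatocyte proteins did not share 1 direction, and their median lay slightly above WT. The list's median log2 ratio to the WT mean was 0.46, 0.28 and 0.23 in FK replicates 1, 2 and 3, against -3.11, -2.90 and 0.14 for the 41 drug-metabolizing genes and -0.00, -0.02 and -0.02 for all genes tested. Of its 19 tested genes 1 rose in FK, APOA1, the main protein of high-density lipoprotein (5.59, SE 1.13, edgeR adjusted p = 0.0404, and 6.13 without FK replicate 3), and 0 fell. Over all genes tested, 3.04% rose and 1.73% fell with all replicates. APOA1 was 28.0, 34.2 and 49.2 CPM in WT and 2716, 2564 and 74.8 CPM in FK. Without FK replicate 3, 7 were called higher and 4 lower, where 18.7% and 16.2% of all genes tested were, so the lower share is near the background. The 4 were APOA2 (-2.08), APOC3 (-1.43), TTR (-2.06) and RBP4 (-1.56), named because of this count. ALB was not called in either fit (-0.52 with FK replicate 3, -0.80 without). No test of the difference between the lists was made.

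**Figure D5:**
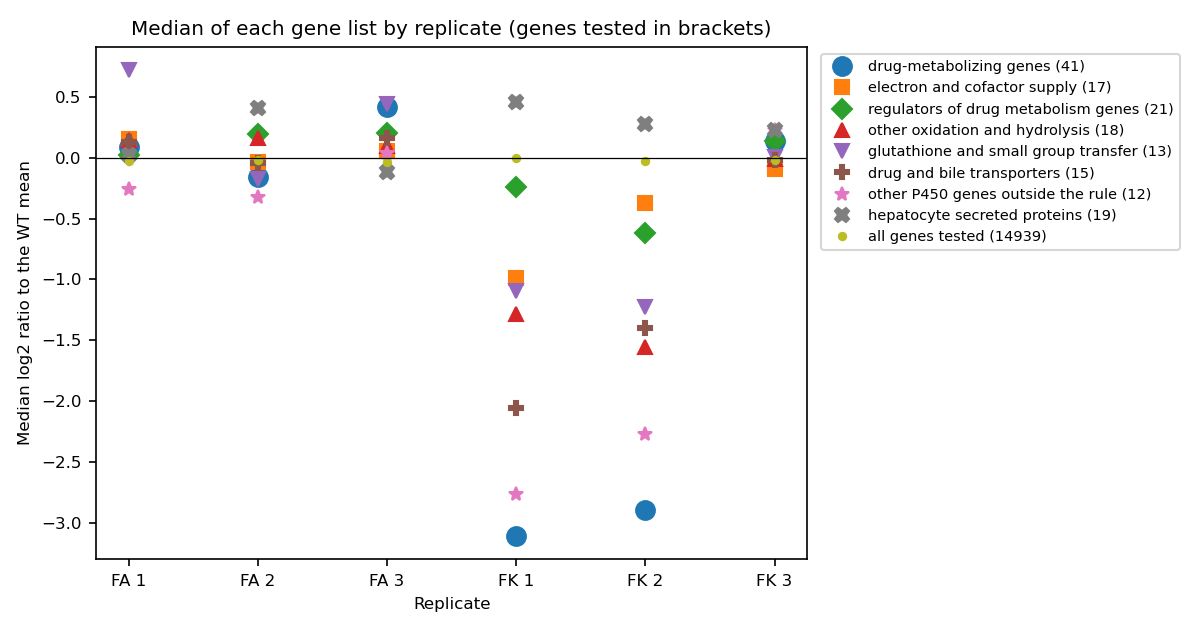
Each symbol gives the median, over the tested genes of a list, of the log2 ratio of a replicate's CPM to the WT mean, for the 6 FA and FK replicates. The drug-metabolizing genes lie at -3.11 and -2.90 in FK replicates 1 and 2, the hepatocyte secreted proteins at 0.46 and 0.28, and all lists lie within 1 of 0 in the other 4 replicates.

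The symbol rule misses rows that carry only a LOC identifier. By RefSeq name, 11 such rows would belong to the same families, and they are given apart because they are not members. CYP1A2, the caffeine-oxidizing P450, was 7272, 3278 and 2755 CPM in WT and 5.37, 6.07 and 3874 CPM in FK. CYP1A1, induced through the dioxin receptor, was 3688, 1724 and 1764 CPM in WT and 91.0, 57.0 and 943 CPM in FK. CES1, the major liver carboxylesterase, was 4056, 3726 and 4399.9 CPM in WT, 8199, 6299 and 7381 CPM in FA and 61.5, 162 and 5373 CPM in FK. All 3 lay far below WT in FK replicates 1 and 2 and higher in FK replicate 3, so CES1 differed from CES3 in this. With all replicates none was called (edgeR adjusted p = 0.575 for CYP1A2, 0.137 for CYP1A1 and 0.615 for CES1), and without FK replicate 3 they differed from WT by -9.62 (SE 0.66), -5.04 (SE 0.65) and -5.20 (SE 0.51), each called.

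CYP2U1 did not. It was 93.3, 103 and 105 CPM in WT, 14.8, 32.9 and 17.4 CPM in FA and 12.7, 12.6 and 14.8 CPM in FK, with FK replicate 3 level with the other FK replicates. It fell in FK by 2.91 on the log2 scale (SE 0.31, edgeR adjusted p = 0.00601) and in FA by 2.21 (SE 0.30, adjusted p = 0.0387). The FK call held in 16 of 16 alternative fits, at -3.01 without FK replicate 3, but the FA call in only 8 of 16. CYP1B1, a P450 of estrogen and pro-carcinogen oxidation, rose in FK from 3.26, 3.12 and 3.50 CPM in WT to 14.1, 14.8 and 6.55 CPM (1.85, SE 0.34, adjusted p = 0.0363, and 2.12 without FK replicate 3). The CYP1B1 call held in only 4 of 16 alternative fits, with the same sign in all 16. CYP2U1 and CYP1B1 were singled out after their values were seen. The remaining rows were CYP4V2, at 193 to 274 CPM in WT and 9.59, 9.37 and 70.2 CPM in FK, CYP2R1, CYP2S1, CYP4F22 and CYP4X1, each at most 6.51 CPM in any replicate, and SULT1C3, which had no count.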

How the data were processed

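Gene-level values of 36 rabbit liver libraries were used. The authors deposited 1 table of estimated counts, whole numbers as given. Salmon 0.14.1 is named in the submitters' processing notes. Its use, the build, annotation, rounding and strand handling were not given in the sources used here. Antisense or similar copies can share reads. Per the labels' protocols, livers were trypsinized, RNA was taken with TRIzol and libraries were made with a TruSeq kit. Of the per-sample columns 0 were left unused.

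The 4 libraries of each set were summed, and the 9 replicates (53.2 to 78.6 M counts) entered 1 edgeR model (version 4.0.16, under R 4.3.3). It used filterByExpr by group, TMM factors, quasi-likelihood F tests and Benjamini-Hochberg adjustment over all 14939 genes tested, at a threshold of 0.05 with no fold minimum. "Rose", "fell" and "called" refer to that threshold. CPM are TMM-scaled. Families were refitted as summed rows. Scripts were tested on simulated data. RefSeq (assembly mOryCun1.1) gave names and gene order for 47 of the 48 members, 45 by symbol and 2 by synonym. Alternatives were DESeq2 1.42.0, RLE factors, no low-count filter, a fit of the 2 groups compared, the set number as replicate block, each replicate left out, only library 1 of every set, and limma 3.58.1 voom on the 36 libraries with the set as random block (consensus correlation 0.791).

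The members and lists were chosen with earlier results of these data known. Named were CYP2J1 and CYP2B4, the up to 3 members of each family with the highest mean CPM (at least 1), every called member, and from each list up to 4 called genes per comparison with the smallest p, or the single smallest p. The values of 1 member are not reported here, though it enters counts and its family's sum.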

Additional observations from a re-analysis of the deposited data

How the results depend on the processing

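Results here are limited by 3 replicates a group and by FK replicate 3. Counts of members called higher and lower in FK against WT (0 and 1) became 2 and 4 with DESeq2, 1 and 25 with voom, 0 and 0 with the 2 groups alone, with the replicate block and with library 1 of each set. In FA against WT (0 and 0) they became 1 and 1 with DESeq2, 3 and 2 with the 2 groups alone, and 1 and 2 with voom. In FA against FK (0 and 0) voom called 32 higher and DESeq2 2 lower. Families called lower in FK against WT (1) became 3 with DESeq2 and 0 with the 2 groups alone or the replicate block. Families in FA against WT (0 and 0) became 1 lower with DESeq2 and 1 higher and 1 lower with the 2 groups alone, and in FA against FK 1 lower with DESeq2. The cause of these differences was not tested. Fits of 2 groups hold fewer samples and estimate the spread from those groups alone. Voom counts the libraries of a set partly as replicates, with 1 correlation for all genes.

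Leaving out 1 replicate at a time gave 0 to 1 members higher and 0 to 29 lower in FK against WT, 0 to 3 and 0 to 3 in FA against WT, and 0 to 34 and 0 to 2 in FA against FK. For families the ranges were 0 to 0 and 0 to 13, 0 to 1 and 0 to 2, and 0 to 15 and 0 to 1. The upper ends came from leaving out FK replicate 3. In that fit by gene, 16.2% of all genes tested were lower in FK against WT, and 16.4% were higher in FA against FK. No pairing by set number was seen in deviations from the group means. Across genes they correlated at -0.0868 to 0.0993 over 9 same-numbered pairs and at -0.0953 to 0.115 over 18 other pairs. With 3 replicates a group, such values cannot tell whether same-numbered sets were handled together. With the replicate block CYP2J1 had an adjusted p of 0.0906 in edgeR, and 0 members and 0 families were called in any comparison.

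Signs turned for CYP4B1 in FK against WT (0.80), for CYP2C5 in FA against WT (0.82) and for smaller differences. For UGT2A1 in FK against WT (0.12) the log2 difference was -1.74 with the block and -2.25, called, with voom. For AOX2 in FK against WT (0.02) the log2 difference was -0.0060 with DESeq2, -0.00080 with RLE, -0.012 without a filter, -0.0078 with the 2 groups alone, -0.22 with the block and -0.39 with voom. In FA against WT it was 0.020 for CYP2A11 and -0.12 for CYP2C5 with the block, and with library 1 alone -0.0041 for CYP2B5 and 0.028 for FMO1. In FA against FK it was 1.09, 1.24 and 0.18 for CYP3A6 with the block, voom and library 1, and 0.062 and 0.012 for CYP4A6 with the block and voom. With 1 replicate left out, FK against WT ranged from -1.10 to 0.37 for AOX2, -0.73 to 1.26 for CYP4B1, -11.47 to 0.17 for CYP2C5, -2.09 to 0.24 for CYP2C1, -4.07 to 0.69 for UGT2A1, -0.41 to 0.016 for UGT1A7 and -1.26 to 0.024 for UGT2C1. FA against WT ranged from -0.13 to 0.31 for CES3, -0.26 to 0.11 for CYP2A11, -0.43 to 0.72 for CYP2B5, -0.019 to 1.24 for CYP2C5, -0.14 to 0.74 for CYP2C30, -0.71 to 0.057 for CYP4A5 and -0.30 to 0.12 for FMO1. FA against FK ranged from -0.66 to 2.64 for CYP3A6, -0.29 to 0.50 for CYP4A5 and -0.32 to 0.24 for CYP4A6. Of the remaining values for named genes, 1532 kept direction and side of the threshold, 132 passed it and 11, all for CYP2J1 in FK against WT, no longer did. At this depth members under about 1 CPM rest on few counts.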
